A study of Saccharomyces cerevisiae with 10 samples.

Results

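The phosphate regulon of budding yeast is described here through 9 of its genes, PHO5, PHO84, PHO89, PHO8, SPL2, PHM6, VTC1, VTC3 and VTC4, and through the Swc4 peaks that lay at them. The genes were given as a list of names from knowledge of the pathway, chosen with earlier results of these data known. All 9 were found among the 6002 nuclear protein-coding genes of the annotation. A peak belonged to a gene when it overlapped the gene body or the 500 bp upstream of the annotated start by at least 1 bp. The peaks came from ChIP-seq of Myc-tagged Swc4 (SWC4-13MYC), precipitated through its tag. The Saccharomyces cerevisiae cells were grown in YPD, a rich medium, at 30 °C and taken in mid-log phase. The 10 samples made up 5 groups of 2 repeats. The 4 tagged groups were wild-type, yaf9d, eaf1d and swr1d, where d stands for deletion, and the fifth group was wild-type with no tag. Swc4 is a subunit of both SWR1, which deposits the histone variant H2A.Z, and NuA4, which acetylates histones. Yaf9 is also in both complexes, Eaf1 is the NuA4 scaffold and Swr1 is the SWR1 ATPase.

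Each of the 4 deposited peak lists pools both repeats of 1 tagged group. There is therefore no replicate spread at any peak, no test between genotypes was possible, and the untagged group was not analysed here. There were 625 peaks for wild-type, 4590 for yaf9d, 2937 for eaf1d and 1262 for swr1d. Longer lists reach more genes, so each count below stands beside the share of all protein-coding genes in the same list. A fold is the peak caller's enrichment at the summit over its local background, and places a peak within its own list but not against another list. Median folds over all peaks were 1.67, 1.88, 1.85 and 1.68, in the order wild-type, yaf9d, eaf1d and swr1d. No peak of the yaf9d list overlapped the body of YAF9, none of eaf1d that of EAF1 and none of swr1d that of SWR1. YAF9 had no peak over its body in any list, and EAF1 had peaks there in yaf9d only, so the absence checks the yaf9d and eaf1d labels weakly. SWR1 had 1 peak over its body in wild-type, 2 in yaf9d and 1 in eaf1d.

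The regulon lets the cell collect and store phosphate. When phosphate is short, the transcription factor Pho4 enters the nucleus. Together with its partner Pho2 it activates genes of phosphatases, transporters and enzymes of polyphosphate storage. When phosphate is plentiful, the kinase Pho85 with its cyclin Pho80 phosphorylates Pho4 and keeps it out of the nucleus. The PHO5 promoter is a classic model of promoter chromatin, since positioned nucleosomes cover it in the repressed state and are lost on activation. No RNA was measured in these samples.

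Across the 9 genes, 30 peaks were found in the 4 lists together. In wild-type 3 genes had a peak (SPL2, VTC1 and VTC3), against 16.6% of all protein-coding genes. In yaf9d 8 genes had one, all but PHM6, against 64.2%. In eaf1d 7 genes had one, all but PHM6 and VTC1, against 51.6%. In swr1d 4 genes had one (PHO84, PHO8, SPL2 and VTC4), against 26.3%. The members' shares were thus 33.3%, 88.9%, 77.8% and 44.4%, and with 9 genes each gene is worth 11.1 points of its share. The genes ran from 315 to 2508 bp in length with a median of 1701 bp, while the median of all genes was 1200 bp. Among the 4839 genes in that range of length the shares were 17.3%, 64.3%, 51.6% and 26.6%. That range holds most of the 6002 genes, so it matches length only loosely. In genes under 500 bp, such as SPL2, VTC1 and PHM6, the shares were 22.1%, 57.0%, 49.6% and 30.2%. In a class of long genes they were 13.1%, 69.6%, 56.5% and 25.9%. That class takes in PHO8 (1701 bp) and all longer members, but not PHO5 (1404 bp). Shares thus varied with length, and not in the same direction in every list.

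**Figure D1:**
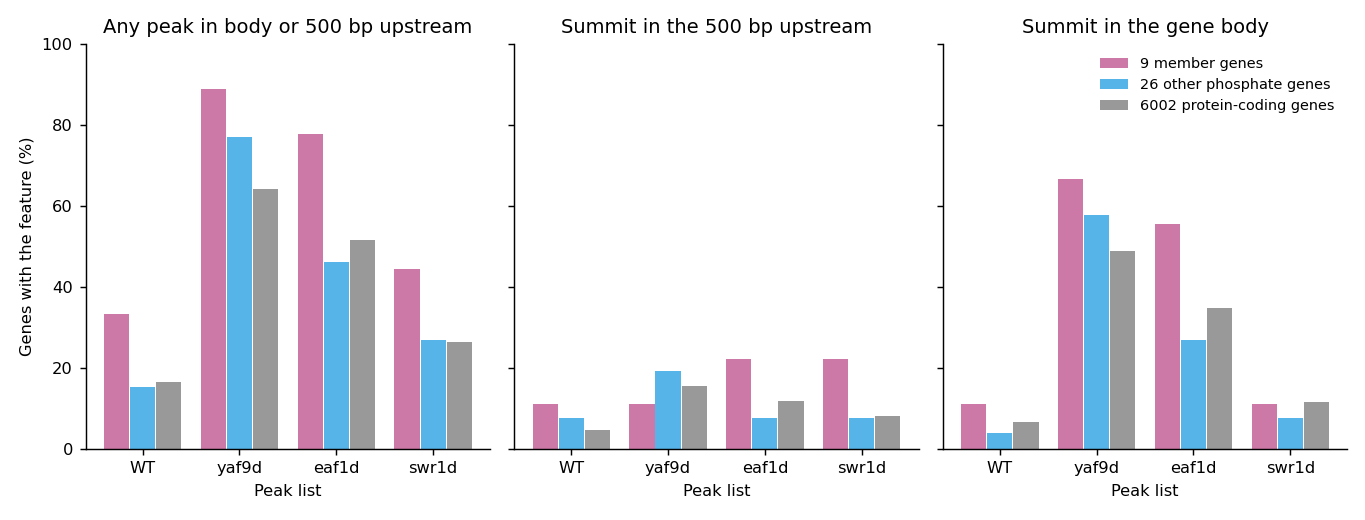
Share of genes (%) with any peak, with a summit in the 500 bp upstream and with a summit in the gene body, by peak list, for the 9 member genes, 26 other phosphate genes and all 6002 protein-coding genes. The tallest member bars are any peak in yaf9d (8 of 9 genes) and eaf1d (7 of 9), where the bar of all genes is also tallest.

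The counts depended on which peaks were let in. With peaks of fold at least 2 alone, 1 member had a peak in wild-type, 4 in yaf9d, 3 in eaf1d and 1 in swr1d, beside 4.93%, 31.4%, 22.7% and 11.0% of all genes. With each list cut to its 625 most significant peaks, 3 members had one in wild-type and 1 in each mutant, beside 16.6%, 13.9%, 14.0% and 14.2% of all genes. SPL2 was that gene in yaf9d and swr1d, and PHO5 in eaf1d, through a peak that overlapped its window by 42 bp. The rise in the number of members from wild-type to the mutants was thus seen with the full lists and was not seen at equal list length.

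Of the 30 peaks at these genes, 6 had the summit in the 500 bp upstream (20%), 16 in the gene body, 7 further upstream than 500 bp and 1 past the gene's end. Over all genes and the 4 lists, 18.6% of the 12898 pairings of a gene with a peak had the summit in the 500 bp upstream, so the members' share was near that of all genes. A summit in the promoter was found for 1 gene in wild-type (SPL2), 1 in yaf9d (SPL2), 2 in eaf1d (PHO84 and PHO8) and 2 in swr1d (PHO8 and SPL2). Of all genes 4.73%, 15.4%, 11.7% and 8.06% had such a summit in these lists. A summit in the body was found for 1 member in wild-type (VTC1), 6 in yaf9d, 5 in eaf1d and 1 in swr1d (VTC4), beside 6.55%, 48.8%, 34.9% and 11.6% of all genes.

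**Figure D2:**
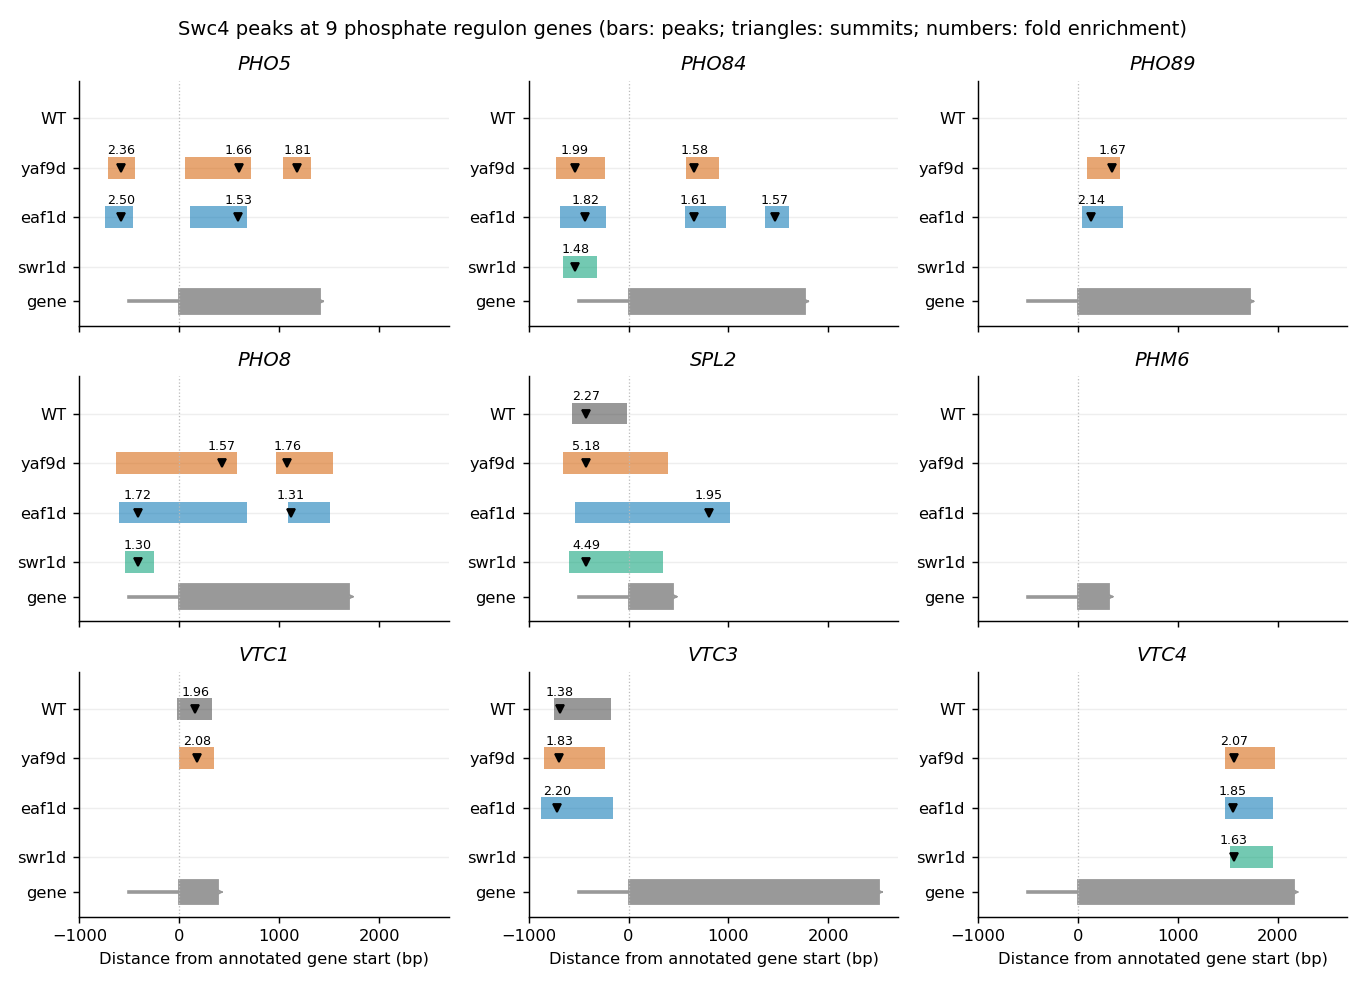
Peaks (bars), summits (triangles) and folds (numbers) at the 9 genes, by distance from the annotated gene start in bp, with the gene body as a grey box and the 500 bp upstream as a grey line. SPL2 is the gene with a peak in all 4 lists, PHM6 has none, and the SPL2 summits of wild-type, yaf9d and swr1d line up about 425 bp upstream.

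SPL2 encodes a small regulator that turns down low-affinity phosphate uptake when phosphate is scarce, and it was the one member with a peak in every list, with the highest member fold in wild-type, yaf9d and swr1d. The wild-type peak lay at chromosome VIII, 375114–375662, with a fold of 2.27, a −log10 q of 20.7 and rank 222 of 625. The yaf9d peak lay at 374702–375752, with a fold of 5.18, a −log10 q of 115 and rank 158 of 4590. The swr1d peak lay at 374759–375700, with a fold of 4.49, a −log10 q of 100.2 and rank 182 of 1262. These 3 peaks had their summits within 2 bp of each other, 426, 424 and 425 bp upstream of SPL2. The same summits lay 183, 185 and 184 bp upstream of ARO9, an aromatic aminotransferase gene that is read in the opposite direction, so the position belongs to the promoters of both genes.

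In eaf1d the SPL2 peak was the widest of the gene, at 374087–375631, and it covered all of the body and of the 500 bp upstream. Its fold was 1.95, its −log10 q 21.5 and its rank 810 of 2937. Its summit was not at the position shared by the other lists but 802 bp downstream of the SPL2 start, 12 bp into the neighbouring gene YCK1, a casein kinase. The pileup, the number of fragments over the summit as recovered from fold and p, was 186 in wild-type, 313 in yaf9d, 274 in eaf1d and 316 in swr1d. The local background at those summits was 81.5, 59.6, 139.9 and 69.6 fragments. The yaf9d value of 59.6 recurred at peaks of PHO89, PHO2, VTC5 and PPN1 in that list. It may therefore be a floor of the list and not a value local to SPL2, which was not tested. Depth per sample is not given, so pileups and backgrounds, like folds, cannot be compared between lists. A summit in the promoter in wild-type, yaf9d and swr1d and none in eaf1d was found for 67 of the 6002 genes (1.12%), SPL2 among them.

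**Figure D3:**
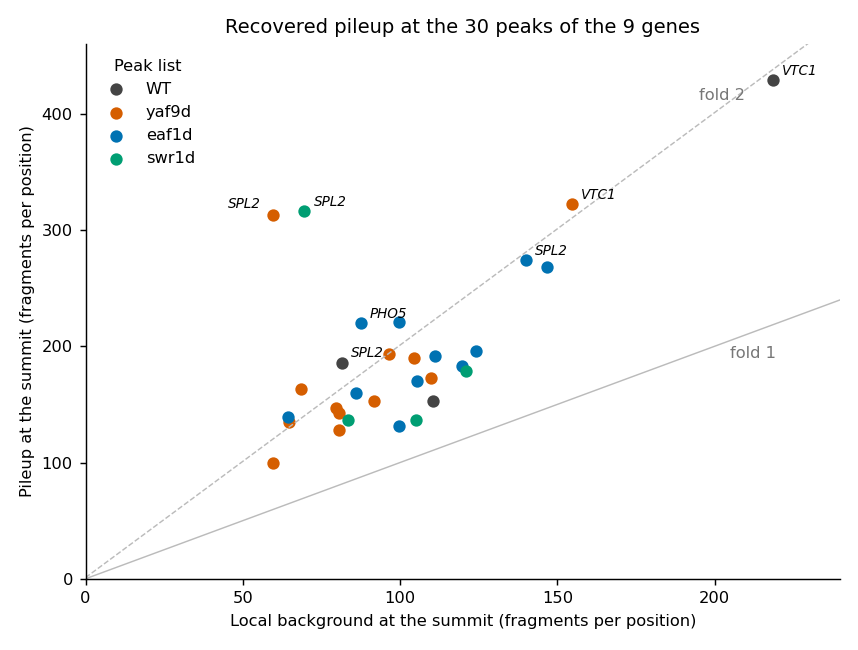
Pileup against local background, both in fragments per position, at the summits of the 30 peaks, coloured by list; lines mark a fold of 1 and of 2. The SPL2 summits of yaf9d and swr1d (313 and 316 fragments over 59.6 and 69.6) stand apart from the other 28 peaks. The VTC1 summits have the highest backgrounds of the member peaks in their lists. Depth is not given, so fragment counts cannot be compared between lists.

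PHO5 encodes the main repressible acid phosphatase, which is secreted to free phosphate outside the cell. It had no peak in wild-type or swr1d, where the nearest peaks lay 1522 and 9649 bp from its window. In yaf9d it had 3 peaks and in eaf1d 2, on chromosome II. The strongest in both lists had its summit at the same base, 431537, which is 586 bp upstream of PHO5 and 499 bp upstream of PBY1 on the other side. It spanned 431391–431661 in yaf9d (fold 2.36, −log10 q 20.2, rank 1177 of 4590) and 431410–431695 in eaf1d (fold 2.50, −log10 q 30.2, rank 455 of 2937). It entered the 500 bp upstream of PHO5 by 61 and 42 bp only.

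Inside PHO5, a second peak had its summit 595 bp into the gene in yaf9d (430237–430895, fold 1.66, rank 3505) and 588 bp in eaf1d (430274–430848, fold 1.53, rank 2440). Another, 1182 bp into the gene, was found in yaf9d (429637–429914, fold 1.81, rank 2237). The region from the start of PHO5 to less than 440 bp upstream, which holds most of its promoter, was covered by no peak in any list. PHO5 has close copies, among them its neighbour PHO3, and reads from shared sequence may be split between them.

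PHO8 encodes the vacuolar alkaline phosphatase. It had no wild-type peak, and the nearest lay 6641 bp from its window. A broad peak spanned its start in yaf9d (chromosome IV, 1419673–1420880, fold 1.57, rank 3663 of 4590) and eaf1d (1419576–1420854, fold 1.72, rank 1864 of 2937). The summit of that peak lay 427 bp into the gene in yaf9d but 416 bp upstream in eaf1d. The swr1d peak, at 1420507–1420793, was near the limit of its list, with a fold of 1.30, a −log10 q of 1.77 and rank 1206 of 1262. Its summit was 414 bp upstream, 2 bp from that of eaf1d, and both lay inside CWC21, a gene of pre-mRNA splicing on the strand of PHO8. The eaf1d and swr1d summits were also 491 and 493 bp upstream of KRE2, a neighbour read in the opposite direction. A further body peak had its summit at 1082 bp in yaf9d (fold 1.76) and at 1117 bp in eaf1d (fold 1.31). In eaf1d it too was near the limit of its list, with a −log10 q of 2.05 and rank 2894 of 2937.

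PHO84, the high-affinity phosphate transporter of the plasma membrane, had peaks in the 3 mutants and none in wild-type within 9003 bp of its window. Its upstream peak lay on chromosome XIII at 26031–26521 in yaf9d (fold 1.99, rank 1572 of 4590), 26029–26490 in eaf1d (fold 1.82, rank 1122 of 2937) and 26111–26458 in swr1d (fold 1.48, rank 875 of 1262). The summits were 537 bp upstream in yaf9d, 534 bp in swr1d and 433 bp in eaf1d, so those of yaf9d and swr1d fell just outside the 500 bp promoter and that of eaf1d inside it. All 3 lay within YML122C, an open reading frame upstream of PHO84 and on its strand. These peaks also reached into the 500 bp upstream of GTR1, a neighbour read in the opposite direction, with summits 593, 697 and 596 bp upstream of it in yaf9d, eaf1d and swr1d. Body peaks had summits at 660 bp in yaf9d (fold 1.58) and at 652 and 1466 bp in eaf1d (folds 1.61 and 1.58). An antisense RNA is annotated over the whole locus, and ChIP does not tell strands apart.

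PHO89, a sodium-coupled phosphate transporter, had 1 peak in yaf9d and 1 in eaf1d, both just inside the gene. The yaf9d peak (chromosome II, 798102–798432) had a fold of 1.67 and a −log10 q of 5.17, at rank 4098 of 4590. The eaf1d peak (798068–798476) had a fold of 2.14 and a −log10 q of 14.0, at rank 1414 of 2937. The summits were 347 and 135 bp from the start, so the peaks overlapped but the summits did not coincide. The nearest peaks in wild-type and swr1d lay 60886 and 54308 bp from the window. The 500 bp upstream of PHO89 had no peak in any list.

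The vacuolar transporter chaperone complex makes polyphosphate, the cell's phosphate store, and moves it into the vacuole. VTC4, its catalytic subunit, had 1 peak in each mutant and none in wild-type within 10327 bp. The peak lay late in the gene on chromosome X, at 411423–411928 in yaf9d (fold 2.07, rank 2159 of 4590), 411444–411921 in eaf1d (fold 1.85, rank 1781 of 2937) and 411445–411879 in swr1d (fold 1.63, rank 808 of 1262). The summits were 1568, 1550 and 1564 bp into the 2166 bp gene. The position was thus the same within 18 bp in 3 lists, and the VTC4 promoter had no peak. The same peaks reached into the 500 bp upstream of MAD3, the next gene on the same strand, with summits 791, 809 and 795 bp upstream of it in yaf9d, eaf1d and swr1d.

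VTC1, a small membrane subunit of the complex, had a peak in wild-type and yaf9d. It covered most of the 390 bp gene, at chromosome V, 302786–303136 in wild-type (fold 1.96, −log10 q 33.5, rank 152 of 625) and 302804–303151 in yaf9d (fold 2.08, −log10 q 29.7, rank 719 of 4590). The summits were 159 and 178 bp into the gene. Both peaks also reached into the 500 bp upstream of TDA2, a neighbour read in the opposite direction, with summits 638 and 657 bp upstream of it. Within each of these 2 lists VTC1 had the highest pileup of the 9 genes, with 429 fragments in wild-type and 322 in yaf9d. It also had the highest local background in each, 218.5 and 154.6 fragments. By rank the wild-type VTC1 peak was the most significant member peak of that list, ahead of SPL2. In eaf1d and swr1d the nearest peaks lay 2732 and 2700 bp from the window.

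VTC3, a regulatory subunit, had a peak upstream in wild-type, yaf9d and eaf1d. It lay on chromosome XVI at 517196–517768 in wild-type (fold 1.38, −log10 q 2.78, rank 561 of 625), 517250–517864 in yaf9d (fold 1.83, −log10 q 9.96, rank 2837 of 4590) and 517174–517894 in eaf1d (fold 2.20, −log10 q 23.4, rank 708 of 2937). The summits were 690, 693 and 715 bp upstream of VTC3, and 57, 60 and 82 bp into CTF19, a kinetochore gene read in the opposite direction. The peak therefore reached the VTC3 promoter by its flank, with 323, 269 and 345 bp in the window, while its summit was in the neighbouring gene. No list had a summit in the VTC3 promoter or body.

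PHM6, a small gene of unknown function that is induced by phosphate shortage, had no peak in any list. The nearest peak lay 774 bp from its window in yaf9d (fold 1.89), 6303 bp in eaf1d, 6330 bp in swr1d and 7905 bp in wild-type. A gene with no peak in any list was common, at 31.7% of all protein-coding genes. A peak in all 4 lists, as at SPL2, was found for 9.05%, the combination of the 3 mutants without wild-type (PHO84, PHO8 and VTC4) for 13.8%, and yaf9d with eaf1d alone (PHO5 and PHO89) for 21.1%. Wild-type and yaf9d alone, as at VTC1, made up 1.50%, and the 3 lists other than swr1d, as at VTC3, made up 3.80%.

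**Figure D4:**
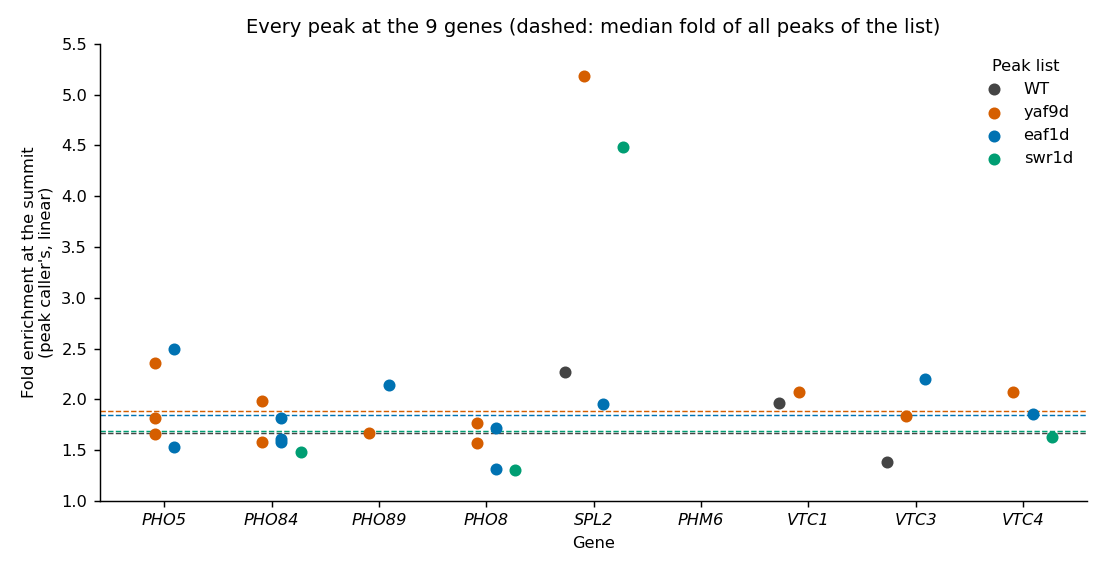
Fold enrichment at the summit (linear scale) of each of the 30 peaks, by gene and list; dashed lines are the median fold of all peaks in each list. The SPL2 peaks of yaf9d (5.18) and swr1d (4.49) lie far above their list medians, and the other members' peaks range from 1.30 to 2.50.

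The member peaks were spread through the ranks of their lists. Member peaks above the median −log10 q of all peaks numbered 2 of 3 in wild-type, 6 of 12 in yaf9d, 5 of 11 in eaf1d and 1 of 4 in swr1d. Their median folds were 1.96, 1.82, 1.82 and 1.55, beside 1.67, 1.88, 1.85 and 1.68 for all peaks. The median share of a member's body and 500 bp upstream that peaks covered was 26.3% in yaf9d and 18.4% in eaf1d, beside 14.0% and 3.86% over all genes. In wild-type and swr1d the median was 0% for both. SPL2 was covered over 51.4% in wild-type, 94.9% in yaf9d and 88.9% in swr1d, and over its whole window in eaf1d. The mean over the 9 members was 11.3%, 36.7%, 32.6% and 13.9% in these lists, and without SPL2 it was 6.27%, 29.4%, 24.2% and 4.47%, beside 5.24%, 22.1%, 17.4% and 6.63% over all genes. PHO8 was covered over 74.7% in yaf9d and 72.3% in eaf1d.

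Summits of different lists often fell at the same place. Within 20 bp of each other were all 3 wild-type member summits and one of yaf9d, and 4 of the 12 yaf9d member summits and one of eaf1d. Of the 4 swr1d member summits, 3 lay that close to one of yaf9d. Over all nuclear peaks the shares were 53.9% of wild-type summits for yaf9d, 30.3% of yaf9d summits for eaf1d and 53.1% of swr1d summits for yaf9d. No wild-type member summit lay within 20 bp of an eaf1d summit, where 39.8% of all wild-type summits did. With 3 summits this rests on few genes. VTC1 had no eaf1d peak, and the VTC3 summits, 690 bp upstream in wild-type and 715 bp in eaf1d, missed the 20 bp limit narrowly. The sources used here do not say whether the peak calls shared a control.

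Likeness to other genes was measured from the percentile of a gene's most significant peak in each list, with 0 for no peak, as a distance in percentile points over the 4 lists. The nearest genes were AKL1 (1.47 points) and PXR1 (1.90) for PHO5, and BIO5 and BIO4 for PHO89, which stood at 0.83 points each. BIO5 and BIO4 had the same percentiles in all 4 lists. Genes sharing a peak with the member were left out, but not genes sharing one with each other, so this pair may not be 2 separate matches. The nearest were SEF1 (4.59) and HEM3 (8.05) for PHO84, TRP5 (3.93) and COX13 (4.73) for PHO8, and ICS2 (10.2) and ASN2 (11.0) for SPL2. For the polyphosphate genes they were PCL10 (7.63) and YBR032W (7.80) for VTC1, ACF4 (6.48) and ARC35 (10.2) for VTC3, and PET8 (6.56) and PRM4 (9.55) for VTC4. These distances rest on 4 values per gene and describe rank alone. Some of the values come from peaks with the summit outside the gene and its 500 bp upstream. These include the values of PHO5 and VTC3 and the eaf1d value of SPL2.

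A further 26 genes of phosphate transport, signalling and storage were listed by role. A peak was found for 4 of them in wild-type (15.4%), 20 in yaf9d (76.9%), 12 in eaf1d (46.2%) and 7 in swr1d (26.9%), beside the 16.6%, 64.2%, 51.6% and 26.3% of all genes. At fold 2 or more it was 1, 9, 5 and 3 genes, beside 4.93%, 31.4%, 22.7% and 11.0% of all genes. The 6 of 26 with no peak in any list were GIT1, PHO11, PHO12, PHO13, PHO80 and VTC2, where 31.7% of all genes had none. PHO11 and PHO12 are near-identical acid phosphatase genes, to which reads may not map uniquely. Whether this bears on their lack of peaks was not tested.

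Among the phosphatases, PHM8, a lysophosphatidic acid phosphatase, had the strongest peak of all 35 phosphate genes. Its folds were 3.53 in wild-type (rank 65 of 625), 9.49 in yaf9d (rank 27 of 4590) and 7.80 in swr1d (rank 23 of 1262), with summits 304, 309 and 297 bp upstream. In eaf1d the fold was 2.02 (rank 594 of 2937) and the summit lay 766 bp upstream, inside ARB1, the neighbouring gene that shares the peak. The combination of lists with a promoter summit is shared with SPL2, and PHM8 is another of the 67 genes with it. The eaf1d summits of the 2 genes lay elsewhere, downstream of SPL2 in YCK1 and upstream of PHM8 in ARB1. Both eaf1d peaks nevertheless covered the promoter positions where the other lists had their summits. The one at PHM8 spanned from 894 to 145 bp upstream. The difference is thus in where the summit lay, not in whether a peak covered the promoter. PHO3, a constitutive acid phosphatase, had a wild-type peak whose summit was in the next gene, TIM12 (fold 1.65), and a yaf9d peak 139 bp into its body (fold 1.72). GPP2, also named HOR2, a glycerol phosphatase, had peaks in yaf9d and eaf1d (highest folds 1.98 and 1.58).

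Of the transporters, PHO87 and PHO90, which carry phosphate with low affinity at the plasma membrane, had peaks in yaf9d and eaf1d, with highest folds of 2.04 and 2.32 for PHO87 and 2.22 and 2.38 for PHO90. The eaf1d peak at PHO90 had its summit 896 bp upstream, inside MBB1. PHO91, the vacuolar transporter, was touched by peaks in all 3 mutants (highest folds 1.99, 2.19 and 1.41). The strongest in yaf9d had its summit in the body, while those of eaf1d and swr1d had theirs 1204 and 846 bp upstream, inside YNR014W. The PHO91 body summits at 478 and 2387 bp in yaf9d had partners at 479 and 2389 bp in eaf1d. PHO86, needed for Pho84 to leave the endoplasmic reticulum, had peaks in yaf9d and eaf1d (highest folds 1.94 and 1.24). The eaf1d peak was near the limit of its list (−log10 q 2.18, rank 2887 of 2937). SND3, also named PHO88, had a body peak in all 4 lists with folds of 1.37, 2.19, 1.54 and 1.47 and summits 420 to 438 bp into the gene.

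The regulators differed. PHO4 had peaks in all 4 lists, with highest folds of 1.48 in wild-type, 2.64 in yaf9d, 2.23 in eaf1d and 2.46 in swr1d, but a tRNA gene lies under the peaks over its promoter and the peaks at its end are shared with QCR6. PHO2 had a body peak in yaf9d and eaf1d (1.83 and 1.84, with summits 229 and 220 bp into the gene). PHO85 had a peak near its end in the 3 mutants (1.59, 1.26 and 1.34). KCS1 and VIP1, kinases that make inositol pyrophosphates, had a body peak in yaf9d alone (2.69 and 1.84). PHO81, the inhibitor of Pho80–Pho85, was touched in yaf9d alone by a peak with its summit past the gene's end, inside NAS6 (1.80). PHO80 had none.

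Of the polyphosphate genes, PPN1, an endopolyphosphatase, had a promoter summit in yaf9d (fold 3.84, rank 312 of 4590, 377 bp upstream) and swr1d (fold 4.24, rank 193 of 1262, 383 bp upstream) and no peak in wild-type or eaf1d. YHP1 shares that peak. This combination of promoter summits was found for 105 genes (1.75%). VTC5 and PPN2 had a body peak in yaf9d alone (2.03 and 1.51), and DDP1, which cuts polyphosphate and inositol pyrophosphates, had one in yaf9d and eaf1d (1.28 and 1.47). The yaf9d peak at DDP1 was near the limit of its list (−log10 q 1.68, rank 4577 of 4590). PPX1, an exopolyphosphatase, was touched in the 3 mutants by a peak whose summit lay in RPN10 (1.47, 1.25 and 1.24). GDE1, which recovers phosphate from glycerophosphocholine, was touched in yaf9d by a peak with its summit in CAR1 (2.54).

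**Figure D5:**
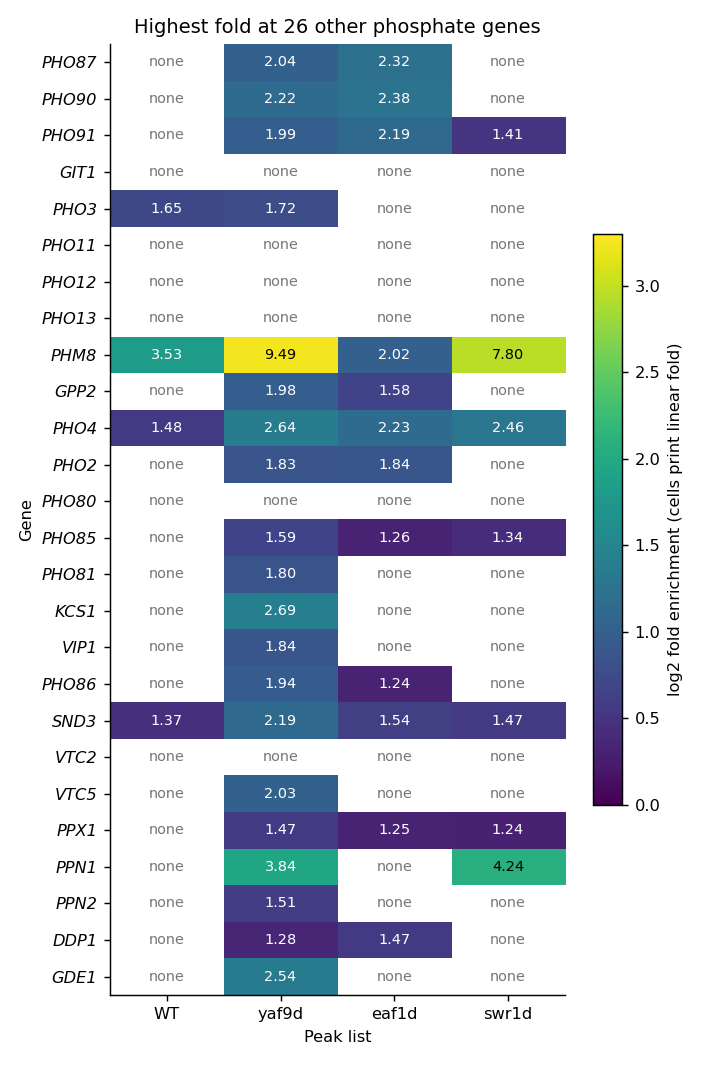
Highest fold at each of 26 other phosphate genes in the 4 lists; cells print the linear fold, colour is its log2, and "none" means no peak overlapping the body or the 500 bp upstream. PHM8 stands highest, at 9.49 in yaf9d and 7.80 in swr1d, followed by PPN1 in the same lists at 3.84 and 4.24.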

How the data were processed

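The tools named in the submitters' processing notes are fastp 0.21.0, BWA 0.7.15-r1140, SAMtools 1.4 and MACS2, and each peak list pools both repeats, per the labels. The sources used here name no build, control or MACS2 setting and give no depth per sample. The authors deposited for each peak its position and summit, a fold enrichment ratio, −log10 p, −log10 q and a score (10 times −log10 q, not used).

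Genes came from RefSeq R64, with strand from the locus tag, and distances from gene starts rest on it (first base of a gene counted as 0). As a check, a summit lay within 60 bp of the middle of 34, 114, 76 and 112 of 275 tRNA genes in wild-type, yaf9d, eaf1d and swr1d, and of 0 to 16 when summits were shifted by 100 to 1000 bp. Rank is by −log10 q. Pileup and local background at each summit were recovered by inverting the peak caller's Poisson upper tail where −log10 p was at most 250, and the pileup came out whole within 0.05 at 97.9% to 99.8% of summits. Scripts used Python 3.11.15, pandas 2.3.3 and SciPy 1.17.1 and were tested on simulated data.

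Counts are descriptions with no test. Members and gene lists were chosen with earlier results of these data known. All 9 members matched by symbol, and 2 of the 26 other genes by synonym. The text names all members, the other phosphate genes by role, genes sharing a member's peak, and for each member with peaks in at least 2 lists the 2 genes nearest in percentile. The comparison of summits within 20 bp, the combinations of promoter summits, the places of summits over all genes and the covered share of windows were chosen after the data were seen, and the deleted genes were named outside this rule. Counts were repeated with peaks of −log10 q 5 or more, with peaks of fold 2 or more, at equal list length, with promoters of 250 and 1000 bp, with an overlap of 100 bp and summits in place of peaks. A search of promoters for Pho4 sites was not run, since no sequence was used here.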

Additional observations from a re-analysis of the deposited data

How the results depend on the processing

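Of 80 recounts under other settings, 50 stayed within 1.5 times the reported count and 30 did not. With fold at least 2, members with a peak fell to 1 in wild-type, 4 in yaf9d, 3 in eaf1d and 1 in swr1d. The other phosphate genes fell to 1, 9, 5 and 3, beside 4.93%, 31.4%, 22.7% and 11.0% of all genes. At that setting members with a body summit numbered 0 in wild-type, 2 in yaf9d, 1 in eaf1d and 0 in swr1d, and those with a promoter summit 0 in eaf1d and 1 in swr1d. At equal list length, members with a peak numbered 1 in each mutant, and the other genes 5 in yaf9d, 3 in eaf1d and 3 in swr1d. Of all genes 13.9%, 14.0% and 14.2% had a peak in these lists. Members with a promoter summit numbered 0 in eaf1d and 1 in swr1d, and those with a body summit 0 in each mutant. In swr1d, −log10 q of at least 5 left 2 members and 4 other genes with a peak, beside 19.2% of all genes. That setting left 1 member with a promoter summit. Promoters of 250 bp left 2 members, beside 19.6% of all genes, and summits in place of peaks left 4 other genes, beside 18.9%. For promoter summits and body summits taken apart, the shares of all genes at these other settings are not given here. These settings admit fewer peaks or a smaller window by construction.

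No paired analysis was possible because each list pools both repeats of its group, and leaving out 1 repeat was not possible either. The folds cover neither unspecific signal, since the untagged group was not analysed here, nor the spread between repeats. The sources used here give no depth per sample, so a gene without a peak is one where none was detected by the authors' call.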
